A study of Homo sapiens with 12 samples.

Results

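The RGS genes encode regulators of G protein signalling, and 9 of them were followed here: RGS1, RGS2, RGS3, RGS10, RGS13, RGS14, RGS16, RGS18 and RGS19. They are 9 of 19775 genes with a probe set of their own on the arrays, and 21 probe sets named them. The family was chosen by measured values, since RGS1, RGS2 and RGS13 were higher after doxycycline in Z-138 cells with hairpins against MAP3K14, and the values of that contrast are given as a description and without a test. RGS18 lay under the limit for low signal and the other 8 passed it. RGS13 passed only through the 2 arrays that chose it, since its mean signal over the other 10 arrays was 10.3 against a limit of 12.55.

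The data are 12 arrays, each reading total RNA of an established human mantle cell lymphoma line, a B cell tumour. Z-138, with a TRAF2 nonsense change per the labels, and Maver-1, with a TRAF3 deletion, each carried a doxycycline-inducible hairpin under puromycin selection. Per line there were 3 cultures, with a non-targeting control hairpin (NTC) or with NIKsh#1 or NIKsh#2, which target MAP3K14, the gene of the NF-kB-inducing kinase NIK. For 7 days each culture was kept both without and with doxycycline at 100 ng/ml, and 1 array was run for either condition. The 8 groups by line, hairpin and doxycycline thus held 1 array each for NTC and 2 each for NIKsh, 1 per hairpin. No label gives a repeat of any culture, so every p-value reflects the spread among these cultures alone, which may be technical.

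When a ligand binds a G protein-coupled receptor, the G alpha subunit loads GTP, parts from G beta and gamma, and signals until the GTP is hydrolysed. RGS proteins speed that hydrolysis and so shorten the signal. In B cells RGS1 and RGS13 are known as brakes on the response to chemokines, and RGS13 is known from germinal centres.

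As checks on the arrays, the median signal lay between 10.6 and 14.1. All 7 measured B cell markers passed the signal limit, with a summed signal of at least 5352.0 on every array. The highest sums were 38.7 for 6 monocyte genes, 110.5 for platelet, 275.1 for T and NK cell and 987.2 for fibroblast and endothelial markers. All 3 mantle cell lymphoma markers passed the limit, but CD5 was at 1.6 or lower on the Z-138 arrays. With doxycycline the log2 signal of MAP3K14 was lower in the 4 NIKsh cultures, by changes of -0.681, -0.075, -0.437 and -0.488 for NIKsh#1 and NIKsh#2 of Z-138 and then of Maver-1, and higher in the NTC cultures of Z-138 (0.241) and Maver-1 (0.759).

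RGS1, RGS13 and RGS2 lie in this order on the long arm of chromosome 1, within 236.5 kb in RefSeq (GRCh38.p14): RGS1 at 192575773 to 192580024, RGS13 at 192636147 to 192660311 and RGS2 at 192809039 to 192812275. Their upstream sequences are shown because these 3 neighbours were high on the same arrays. Each is the 250 bases before the gene's start, on the plus strand, 5′ to 3′, from chr1:192575523-192575772, chr1:192808789-192809038 and chr1:192635897-192636146. Capitals mark matches to TATAAA, to the cAMP response element half-site TGACG, to the AP-1 motif TGANTCA and to the kappaB consensus, the letters bound by NF-kB, each searched on both strands.
RGS1: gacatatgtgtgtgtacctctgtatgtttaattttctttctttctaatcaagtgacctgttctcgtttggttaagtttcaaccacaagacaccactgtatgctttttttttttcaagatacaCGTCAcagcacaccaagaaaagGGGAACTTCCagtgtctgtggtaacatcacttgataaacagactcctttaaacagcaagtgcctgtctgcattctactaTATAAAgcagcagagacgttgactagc
RGS2: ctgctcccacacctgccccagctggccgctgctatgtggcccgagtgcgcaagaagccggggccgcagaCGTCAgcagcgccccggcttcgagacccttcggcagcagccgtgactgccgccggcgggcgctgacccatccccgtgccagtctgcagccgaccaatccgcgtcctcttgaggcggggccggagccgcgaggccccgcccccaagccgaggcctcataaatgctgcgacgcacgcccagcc
RGS13: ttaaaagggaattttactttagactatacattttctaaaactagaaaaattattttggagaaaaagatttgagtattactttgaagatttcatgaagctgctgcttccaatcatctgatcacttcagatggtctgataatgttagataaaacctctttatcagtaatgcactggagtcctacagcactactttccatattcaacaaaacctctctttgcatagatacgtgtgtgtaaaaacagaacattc

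In RGS1, TATAAA began 27 bases before the start, a kappaB match (GGGAACTTCC) 106 bases before it and a half-site on the minus strand (CGTCA) 128 bases before it, and no 2 of these overlapped. RGS2 held a half-site that began 181 bases before the start, and none of the other 3 motifs. RGS13 held none of the 4. Among 35116 windows of the same length upstream of all genes, 10.7% held TATAAA, 21.2% the half-site, 6.57% the AP-1 motif and 9.96% the kappaB consensus. The 3 windows also differed in base composition, with a GC content of 39.2% in RGS1, 72.8% in RGS2 and 32% in RGS13, against a median of 58% over all windows. A match is a run of letters and was not tested as a binding site.

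The first question was how these genes differed with the hairpins against MAP3K14 induced in Z-138, the contrast that chose them. MAP3K14 itself changed by -0.681 in NIKsh#1 but by only -0.075 in NIKsh#2. RGS1, RGS2 and RGS13 were several times higher with doxycycline under both hairpins against MAP3K14, and RGS19 was higher to a lesser degree, while RGS10 and RGS14 stayed within 0.09 log2 units of their untreated level. Values are MAS5 signals, the authors' linear measure of brightness, and changes are differences of log2(signal + 3) between the 2 arrays of a culture. This scale understates changes at low signal, and in RNA from whole cultures fewer expressing cells and less RNA per cell cannot be told apart.

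RGS1 encodes a small protein that is little more than an RGS domain and acts on the Gi and Gq classes. In Z-138 its signal without doxycycline was 481.6 in NIKsh#1, 519.1 in NIKsh#2 and 407.1 in NTC, and with doxycycline it was 1791.5, 1618.9 and 628.5. The 2 NIKsh arrays with doxycycline lay above each of the other 10 arrays, whose highest value was 782.3 in untreated Maver-1 NTC. The mean change was 1.76 ± 0.18 (SD, n = 2 cultures), a 3.39-fold difference, against 0.62 or 1.54-fold in NTC. Below the 2 treated NIKsh arrays the order of groups ran from Maver-1 NTC down to untreated Z-138 NTC, and treated Maver-1 NIKsh (480.7 and 521.0) and untreated Z-138 NIKsh (481.6 and 519.1) overlapped. On the second of its 3 probe sets the 2 treated NIKsh arrays were again the highest, at 302.1 and 982.5 in NIKsh#1, 347.6 and 901.2 in NIKsh#2 and 227.7 and 345.5 in NTC. The last probe set was at 3.6 or lower on all 12 arrays, and averaging all 3 would lower the mean change to 0.92.

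RGS2 encodes a regulator with a preference for Gq, the class that drives phospholipase C. In Z-138 its single probe set read 555.8 and then 2032.8 with doxycycline in NIKsh#1, 672.9 and 2292.4 in NIKsh#2, and 520.9 and 668.7 in NTC. As for RGS1, the 2 treated NIKsh arrays of Z-138 were the highest of the 12, above untreated Maver-1 NTC at 1551.7. The mean change was 1.82 ± 0.07 (SD, n = 2), or 3.52-fold, and 0.36 in NTC, or 1.28-fold. In order, the other groups were all Maver-1 arrays (1231.5 to 1551.7) and then the remaining Z-138 arrays (520.9 to 672.9), in which treated NTC and untreated NIKsh overlapped.

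RGS13, the germinal centre member, was near the bottom of the array in Z-138 before induction. Its signal went from 3.2 to 70.1 in NIKsh#1, from 5.7 to 65.2 in NIKsh#2 and from 5.0 to 4.1 in NTC. The untreated values are under the median signal of their arrays, so the ratio is uncertain and only the scale with the pseudocount is used. On it the mean change was 3.27 ± 0.42 (SD, n = 2) against -0.17 in NTC, and it depended on the pseudocount, with 2.03 at a pseudocount of 16. A second probe set went from 3.0 to 45.5 and from 2.9 to 38.9 in the NIKsh cultures. The remaining one reached only 10.7 and 8.0.

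RGS19, which binds Gi subunits and was not among the genes that picked the family, went from 153.5 to 283.1 in NIKsh#1 and from 128.3 to 441.7 in NIKsh#2. In NTC it went from 110.3 to 162.4. The changes of 0.87 and 1.76 lay above the NTC change of 0.55, and for NIKsh#1 the gap to NTC was smaller than the gap between the hairpins.

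**Figure D1:**
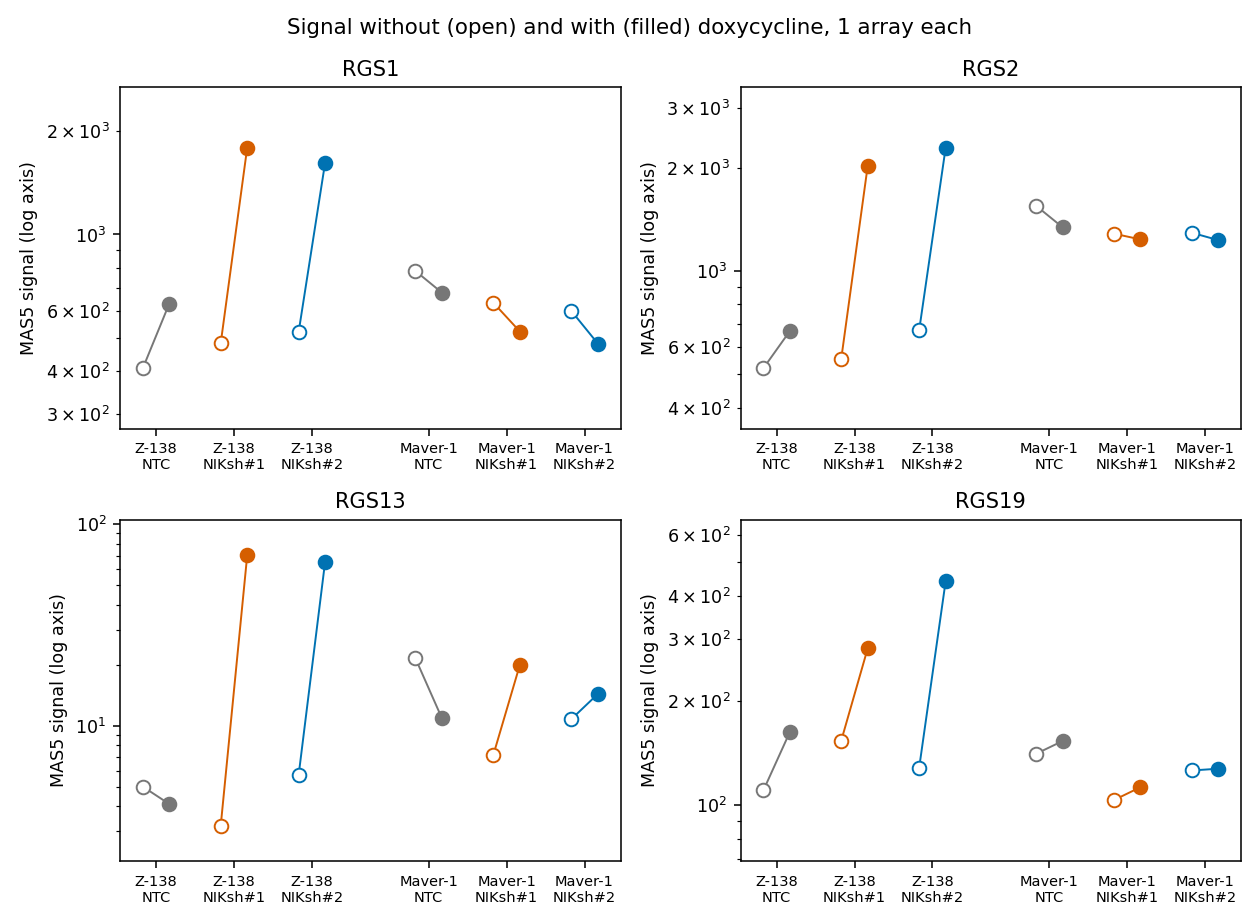
MAS5 signal (log axis) of RGS1, RGS2, RGS13 and RGS19 in each of the 6 cultures, with the open point for the array without and the filled point for the array with doxycycline. In all 4 panels the filled points of Z-138 NIKsh#1 and NIKsh#2 are the highest, such as 1791.5 and 1618.9 for RGS1 against 628.5 in treated Z-138 NTC.

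The other 4 members past the limit had no shared direction under the 2 hairpins in Z-138, apart from values near 0. RGS3, a longer family member with several promoters, went from 30.3 to 56.2 in NIKsh#1, from 29.3 to 23.2 in NIKsh#2 and from 16.9 to 12.2 in NTC, and its other 2 probe sets were at 8.5 or lower on all arrays. RGS16, another small RGS protein, differed most in NTC, where it went from 63.2 to 150.9. In NIKsh#1 it went from 81.9 to 133.9 and in NIKsh#2 from 90.8 to 82.1. The NTC culture thus had the largest RGS16 change, 1.22, against 0.69 and -0.14. RGS10, which acts on Gi and is abundant in lymphoid cells, changed by 0.06 and -0.08 from untreated signals of 1199.7 and 1110.7. RGS14, a scaffold that also binds Rap and inactive Gi, changed by 0.06 and -0.06 from 29.7 and 29.2. Dimmer probe sets of both genes differed from this, with 0.59 and 0.44 for one of RGS10 and -0.85 and -0.51 for one of RGS14. RGS18, a member best known from platelets, was at 4.2 or lower on all 12 arrays.

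Of the 8 members past the limit, 4 were at least 1.5-fold higher in both Z-138 NIKsh cultures and 0 lower, where 2.94% of the 11548 genes were higher and 2.1% lower. Their median change was 0.79 against 0.03 over all genes. Both follow from how the members were picked and are given only as a description. For ACTB, the ratio of 3' over 5' probe set signal, which tracks RNA integrity and amplification, was also higher with doxycycline in Z-138, at 2.86 and 4.62 in NIKsh#1, 2.92 and 5.09 in NIKsh#2, and 2.33 and 6.34 in NTC. Its part in the RGS values was not tested. Of 6 fibroblast and endothelial markers COL1A1 and PECAM1 passed the limit, and both were at least 1.5-fold lower in both Z-138 NIKsh cultures, with a median change of -1.54 against 0.58 in NTC. In Maver-1, COL1A1 changed by -1.08 and -0.96 under the hairpins against 0.50 in NTC, and PECAM1 by -0.04 and -0.12 against 0.35. The summed signal of that list ran from 181.3 to 632.8 over the Z-138 arrays and from 588.7 to 987.2 over those of Maver-1. The part of these markers in the RGS values was not tested. CD3G, 1 of 3 T and NK cell markers past the limit, was also lower in Z-138 NIKsh, with changes of -0.85 and -0.89 against -0.10 in Z-138 NTC.

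**Figure D2:**
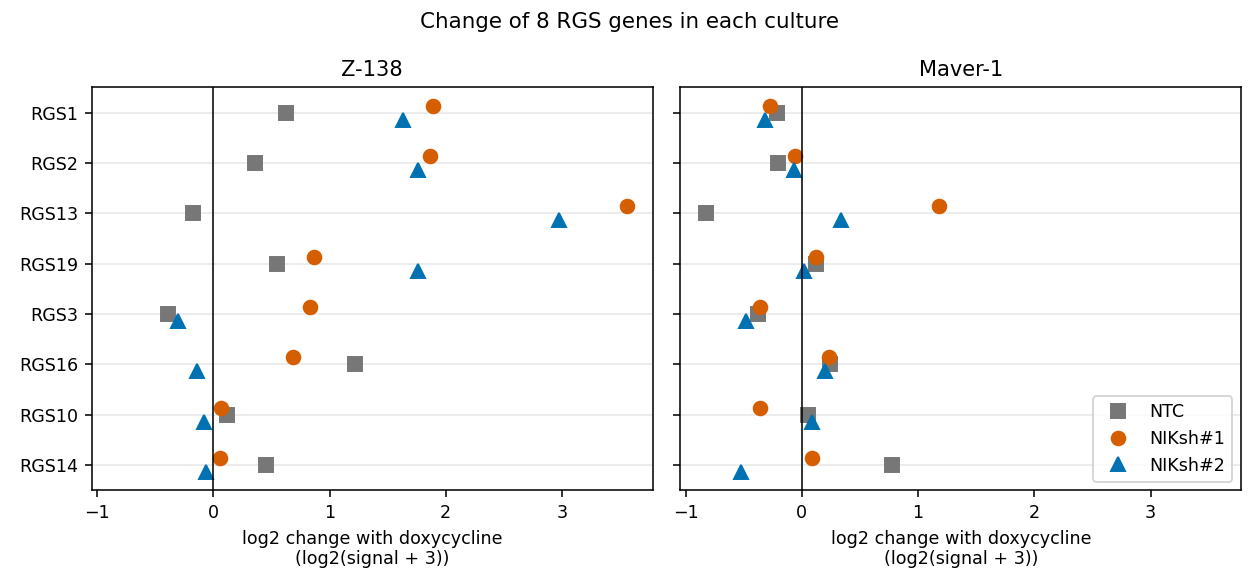
Change in log2(signal + 3) with doxycycline (horizontal axis) for the 8 RGS genes past the signal limit, by culture, with Z-138 on the left and Maver-1 on the right. In Z-138 both NIKsh points lie right of NTC and above 0.5 for RGS1, RGS2, RGS13 and RGS19. Those of RGS3 also lie right of its NTC point (-0.39), but on either side of 0 (0.83 and -0.30). In Maver-1 only RGS13 has a change above 0.5 in a NIKsh culture (1.18).

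Maver-1 gave estimates of the same knockdown from arrays the choice did not use. Their errors came from a model of both lines, so the spread between the Z-138 NIKsh cultures entered them as well. Those cultures chose RGS1 and RGS2, so the p-values and intervals of these genes in Maver-1 are not independent of the choice. RGS13 is given in Maver-1 without a test, since it is among the tested genes only through the arrays that chose it. Of the other 7 members past the limit, 0 passed (limma, adjusted p under 0.05), as did 0% of all 11548 genes, and 459 genes had an unadjusted p under 0.05, of which 0 were among these 7. RGS1 went from 631.9 to 521.0 in NIKsh#1, from 598.4 to 480.7 in NIKsh#2 and from 782.3 to 676.2 in NTC. It was lower in all 3 Maver-1 cultures, with changes of -0.28 and -0.31 under the hairpins and -0.21 in NTC. The limma estimate for NIKsh was -0.30 ± 0.13 (SE; adjusted p = 0.998), with a 95% interval from 0.661-fold to 1.004-fold.

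RGS2 in Maver-1 went from 1286.5 to 1237.6, from 1294.2 to 1231.5 and, in NTC, from 1551.7 to 1343.0. Its estimate was -0.06 ± 0.10 (adjusted p = 0.998 in limma), with a 95% interval from 0.814-fold to 1.124-fold. The width of this interval rests in part on the Z-138 NIKsh cultures that chose RGS2, so no bound on its change is drawn from it. RGS13 went from 7.2 to 20.1 in NIKsh#1, from 10.8 to 14.4 in NIKsh#2 and from 21.6 to 10.9 in NTC. On its brightest probe set it was the only member with a positive change under both hairpins and a negative one in NTC. These signals were close to the array median, and its 3 probe sets did not share a direction in NIKsh#2 (the second went from 9.7 to 7.5). Nor did they in NTC, where the second went from 6.3 to 11.6 and the remaining one from 2.3 to 3.3.

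For the remaining members the Maver-1 estimates ran from -0.42 ± 0.33 for RGS3 to 0.21 ± 0.28 for RGS16, with RGS19 at 0.07 ± 0.25 and an interval from 0.712-fold to 1.543-fold. The median of the 8 members past the limit was -0.10 against -0.01 over all genes. At least a 1.5-fold difference either way in both Maver-1 NIKsh cultures was seen in 0 of these 8 and in 1.2% of all genes. RGS13 is counted among the 8, although only the arrays that chose it brought it past the limit, so both are descriptions. Set against induction of the control hairpin in Maver-1, the NIKsh effect again passed in limma for 0 of the 7 members other than RGS13 and 0% of genes. An unadjusted p under 0.05 was found for 171 genes, 0 of the 7 among them. RGS1 was at -0.09 ± 0.23 and RGS2 at 0.14 ± 0.18 in this difference. These values do not show that the lines respond differently, and the difference between lines was not tested because the Z-138 contrast chose the genes.

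The NTC cultures asked what doxycycline and an untargeted hairpin do to the family. In limma 0 of the 7 members other than RGS13 and 0% of all genes passed over the 2 NTC cultures, and 387 genes had an unadjusted p under 0.05. Leaving out the Z-138 NTC culture gave 84 such genes, and leaving out that of Maver-1 gave 2227, with 0 genes passing after adjustment in both. RGS16, at 0.73 ± 0.31 (adjusted p = 0.895 in limma), was the 1 member among the 387 genes, and went from 24.8 to 30.0 in Maver-1 NTC. RGS14 was at 0.62 ± 0.28 and higher in both cultures, with 28.0 and 39.4 in the Z-138 culture and 16.4 and 30.3 in the Maver-1 culture, but with its 3 probe sets averaged it was at 0.21. RGS1 at 0.21 ± 0.49 and RGS2 at 0.08 ± 0.44 had opposite signs in the 2 lines. The NTC model shared 1 doxycycline effect among the NIKsh cultures of both lines. The Z-138 NIKsh changes that chose RGS1 and RGS2 thus entered their errors, and nothing is concluded from these 2 not passing. In Z-138 NTC the median change of the 8 members past the limit, RGS13 among them, was 0.41 against 0.07 over all genes, given as a description.

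Without doxycycline RGS16 and RGS10 were higher in Z-138 than in Maver-1, in limma over 3 cultures per line. They were 2 of the 5 members tested here (RGS3, RGS10, RGS14, RGS16 and RGS19), where 60.2% of all genes passed. RGS1, RGS2 and RGS13 had higher signals in Maver-1, and are described without a test, because the untreated Z-138 NIKsh arrays are part of the contrast that chose them. The untreated lines also differed in the ACTB ratio of 3' over 5' signal, at 2.33 to 2.92 in Z-138 and 3.66 to 6.88 in Maver-1, and in that of GAPDH, at 1.15 to 1.30 and 1.54 to 2.39. The part of these ratios in the line differences was not tested. RGS2 read 520.9, 555.8 and 672.9 in the Z-138 cultures and 1286.5, 1294.2 and 1551.7 in those of Maver-1, with no overlap, a difference in mean log2 level of 1.24. RGS1 had 407.1 to 519.1 in Z-138 and 598.4 to 782.3 in Maver-1, also without overlap, a difference of 0.51.

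RGS16 read 63.2, 81.9 and 90.8 in the Z-138 cultures and 23.7, 24.8 and 25.8 in those of Maver-1, a difference of -1.54 ± 0.19 (adjusted p = 1.25e-05). RGS10 read 1036.3, 1110.7 and 1199.7 in Z-138 against 691.7, 704.9 and 711.8 in Maver-1, a difference of -0.66 ± 0.08 (adjusted p = 1.56e-05). The groups did not overlap for either gene, and a further probe set of each gave the same order. RGS13 lay between 3.2 and 5.7 in Z-138 but between 7.2 and 21.6 in Maver-1, a difference of 1.00 between low signals.

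RGS3 at 0.47 ± 0.24, RGS14 at -0.37 ± 0.22 and RGS19 at -0.08 ± 0.17 did not pass (adjusted p of 0.108, 0.171 and 0.694 in limma), and for RGS19 the interval ran from 0.739-fold to 1.211-fold. With its 3 probe sets averaged, RGS14 passed, at -0.53 (adjusted p = 0.0189). On the arrays with doxycycline, where Z-138 NIKsh is high, the line difference was -1.14 for RGS1, -0.20 for RGS2, -0.89 for RGS13 and -1.05 for RGS19. The sign of the first 3 was thus turned, and they are described there without a test, since these arrays helped to choose them. RGS10 and RGS16 passed in the same direction on both sets of arrays. RGS19 passed only on the arrays with doxycycline (adjusted p = 0.0337 in limma), where 4194 of 11548 genes passed.

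**Figure D3:**
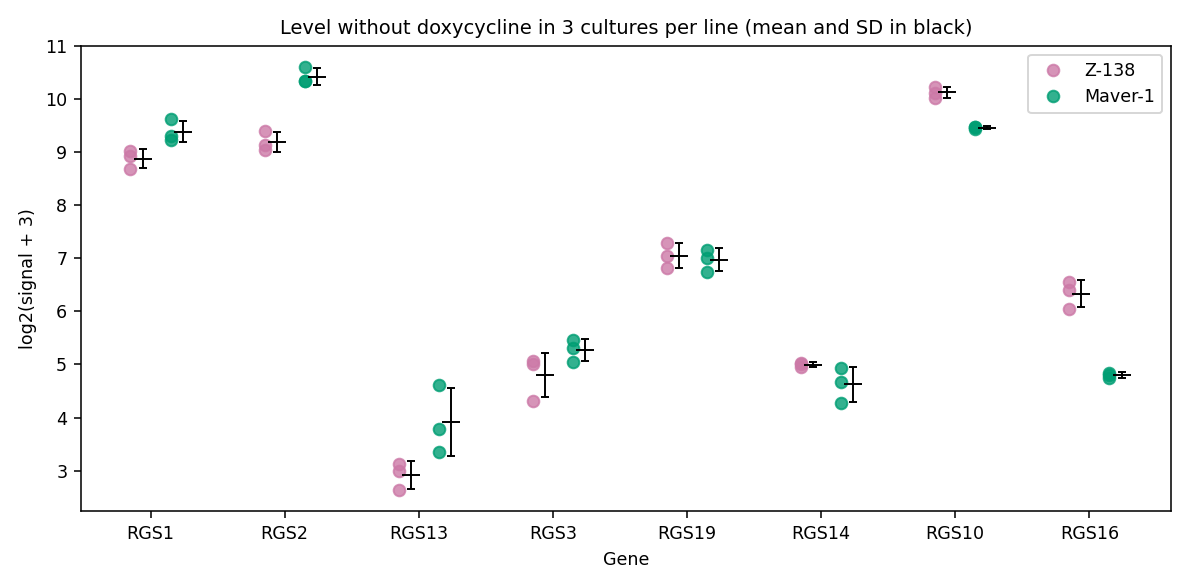
Level in log2(signal + 3) of 8 RGS genes without doxycycline, 3 cultures per line as points, with the mean and SD beside them in black. The lines do not overlap for RGS1, RGS2, RGS13, RGS10, RGS16 and RGS14, and they overlap for RGS3 and RGS19. RGS14 (16.4 to 27.5 against 28.0 to 29.7) did not pass in limma. Of all genes, 60.2% passed between the untreated lines. The share of genes without overlap was not counted, so a lack of overlap is not read as a trait of these genes. The untreated Z-138 NIKsh points are also part of the contrast that chose RGS1, RGS2 and RGS13. Heights of different genes come from different probe sets and are not comparable.

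The position of the 3 genes on chromosome 1 allowed a look at their neighbours, a choice made after the values were seen. Within 2 Mb of the stretch from RGS18 to RGS2, RefSeq has 11 protein-coding genes, 10 with a probe set here and 7 past the signal limit. RGS18 lies at 192158462 to 192185815, on the other side of RGS21, and stayed near the floor. The 4 tested genes that are not members lie beyond RGS2 and changed little in Z-138 NIKsh#1 and NIKsh#2: UCHL5 (a deubiquitinase of the proteasome) by -0.07 and -0.26, RO60 (an RNA-binding autoantigen) by 0.18 and -0.10, GLRX2 (a glutaredoxin) by 0.21 and -0.19 and CDC73 (a subunit of the PAF1 complex) by 0.15 and 0.29. RGS13, between RGS1 and RGS2, had the highest change, and its start lies nearer RGS1 than RGS2. RGS16, on the same chromosome at 182598623 to 182604389, and RGS19, on chromosome 20 at 64073181 to 64079964, are outside this stretch.

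**Figure D4:**
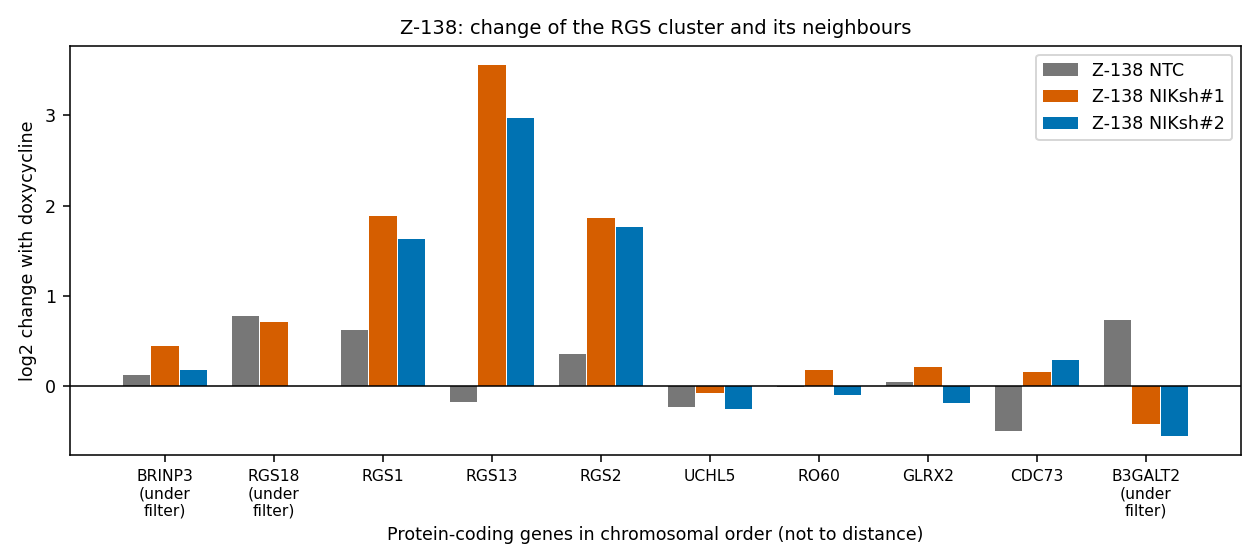
Change in log2(signal + 3) with doxycycline in the 3 Z-138 cultures for 10 protein-coding genes around the RGS genes of chromosome 1, in chromosomal order and without regard to distance. The NIKsh bars of RGS1, RGS13 and RGS2 lie between 1.64 and 3.56, and those of UCHL5, RO60, GLRX2 and CDC73 between -0.26 and 0.29.

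Over the 6 doxycycline changes, 1 per culture, RGS2 was the gene most like RGS1 and RGS1 the gene most like RGS2 among the 11548, with a root mean square difference of 0.18 log2 units. This likeness rests mainly on the Z-138 NIKsh changes and is a description. After RGS2, the genes nearest RGS1 were HIVEP3 (0.29), LINC00205 (0.30), NMT2 (0.32) and ELF4 (0.34). For RGS2 they were DUSP5, a phosphatase of ERK (0.23), ELF4 (0.26), LINC00205 (0.26) and NMT2 (0.27). DUSP5 changed by 1.90 and 1.46 in the Z-138 NIKsh cultures, by 0.09 in Z-138 NTC and by 0.27 and -0.11 in the Maver-1 NIKsh cultures. The genes nearest RGS13 were farther off: THSD7A (0.72), AFF3 (0.76), RASGEF1B (0.85), FGFR3 (0.88) and KCNQ1OT1 (0.90). RGS19 ranked 30 for RGS1 and 28 for RGS2, and RGS10, RGS14, RGS16 and RGS3 ranked at 2661 or farther down for both. RGS13, although it lies between them on the chromosome, ranked 7787 for RGS1 and 5032 for RGS2.

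The wider pathway was described through 8 lists with 131 genes, 78 of them past the signal limit. With NIK knockdown in Maver-1, 0 of these passed in either direction in limma (5 had an unadjusted p under 0.05), and 0 passed in the NTC cultures (3 with such a p). Between the untreated lines 33 were higher and 19 lower in Maver-1, or 66.7% against 60.2% of all genes. Over all 11548 genes, 4017 were higher and 2939 lower in Maver-1, the background of the counts between lines given below for each list. In Z-138 NIKsh, 9 of the 78 were at least 1.5-fold higher in both cultures and 3 lower, against 2.94% and 2.1% of all genes, which is also the background of the counts by list. NR4A2, 1 of the 9, passed the signal limit only through the treated Z-138 NIKsh arrays.

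Among the G alpha subunits, the direct substrates of RGS proteins, 8 of 13 passed the limit, and their median change in Z-138 NIKsh was -0.04. GNAI2, the main Gi subunit of lymphocytes, changed by -0.41 and -0.72 in Z-138 NIKsh but by -1.16 in Z-138 NTC. Between lines, GNA12 and GNA11 were higher in Maver-1 (1.86 ± 0.14 and 0.68 ± 0.16) and GNAI2 and GNAZ lower (-0.62 ± 0.13 and -1.05 ± 0.08). Of 10 tested G beta and gamma genes, GNB4, GNG2, GNB5 and GNGT2 were higher and GNG5 and GNG7 lower in Maver-1, with GNB4 at 4.19 ± 0.18 and GNG2 at 3.42 ± 0.33.

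Among receptors, 14 of 30 passed the limit. Of these, 11 were higher and 1, S1PR2, lower in untreated Maver-1, against 4017 and 2939 of all 11548 genes. This split was not tested. The receptor of sphingosine 1-phosphate S1PR1, which draws cells out of lymphoid tissue, and GPR183, a receptor for oxysterols, were the 2 at least 1.5-fold higher in both Z-138 NIKsh cultures, at 0.59 and 0.82 and at 0.73 and 0.86, with -0.20 and 0.27 in NTC. P2RY10 (-1.13 and -1.43) and GPR132 (-0.72 each) were the 2 lower ones. The chemokine receptors that RGS1 and RGS13 are known to restrain were near their untreated level, CXCR4 at 0.10 and 0.27 and CXCR5, a dim probe set, at -0.23 and 0.30. In Maver-1 CCR7 had the smallest p of the list, at -0.64 ± 0.17 (adjusted p = 0.954 in limma).

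Of 6 tested receptor kinases and arrestins, which end signals at the receptor, GRK3, GRK5 and ARRB1 were higher in untreated Maver-1, ARRB1 by 3.08 ± 0.28, and 0 were 1.5-fold apart in both Z-138 NIKsh cultures. Of 8 other regulators, 4 were higher and 3 lower in Maver-1, and GPSM1, which binds inactive Gi, changed by 0.90 and 1.22 in Z-138 NIKsh against -0.64 in NTC. Of 17 effectors, 4 were higher and 4 lower in Maver-1, with the phospholipase PLCB1 at -3.38 ± 0.26.

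Of the 12 other RGS family genes listed, 11 had a probe set and only RGS5 and RGS12 passed the limit. Neither was 1.5-fold apart in both NIKsh cultures of a line. RGS12 was higher in untreated Maver-1 by 0.78 ± 0.17 (adjusted p = 0.00177 in limma) on its brightest probe set, whose mean signal was 61.23 for Z-138 against 106.83 for Maver-1. Another of its 10 probe sets went the other way, with 64.87 and 49.57.

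Early response genes of Gq and cAMP signalling, 13 tested of 15, had a median change of 0.68 in Z-138 NIKsh against 0.03 over all genes and 0.15 in Z-138 NTC. At least 1.5-fold higher in both cultures were 5: NR4A1, NR4A2, FOS, EGR1 and DUSP1. NR4A2 passed the signal limit only through the treated Z-138 NIKsh arrays. It thus enters this count and the median only because it was high there, and both are given only as a description. NR4A1, an orphan nuclear receptor, went from 37.5 to 95.4 in NIKsh#1, and from 28.4 to 85.9 in NIKsh#2, and changed by 0.19 in NTC. EGR1, a zinc finger factor, went from 1465.4 to 3412.4 and from 1207.0 to 2325.0, and from 1388.5 to 1542.2 in NTC. FOS, a subunit of AP-1, went from 51.2 to 101.4 and from 30.2 to 75.3, and from 35.2 to 30.8 in NTC. NR4A2, a relative of NR4A1, changed by 2.16 and 1.25, and by 0.88 in NTC. NR4A3, the remaining relative, had opposite signs under the hairpins (1.17 and -0.68) and 1.61 in NTC. DUSP1, a phosphatase of MAP kinases, was as high in NTC (0.63) as under the hairpins (0.68 and 0.79), and EGR3 had opposite signs (2.72 and -0.29). In Maver-1 0 of the 13 passed, with EGR1 at 1.15 ± 0.36 (adjusted p = 0.998 in limma), a change of 0.23 in NIKsh#1 and of 2.08 in NIKsh#2, where it went from 20.6 to 96.5. Between the untreated lines 4 were higher and 7 lower in Maver-1, with EGR1 at -5.98 ± 0.14.

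**Figure D5:**
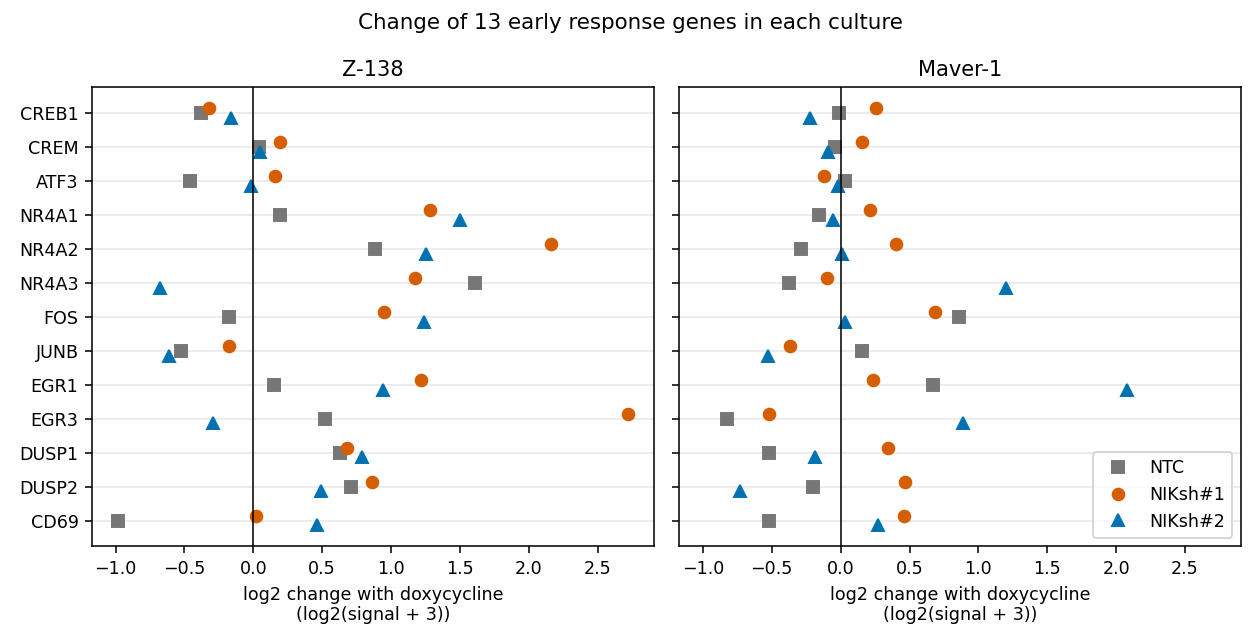
Change in log2(signal + 3) with doxycycline (horizontal axis) for 13 early response genes by culture, with Z-138 on the left and Maver-1 on the right. In Z-138 both NIKsh points of NR4A1, NR4A2, FOS and EGR1 lie right of NTC and at 0.94 or more, and in Maver-1 the 2 hairpins differ most for EGR1 (0.23 and 2.08).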

How the data were processed

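Total RNA of 6 cultures, each without and with doxycycline (12 arrays), was amplified, labelled with biotin and read on Affymetrix arrays. The deposited values are signal intensity per probe set on a linear scale, made with MAS5 per the submitters' processing notes. The mean without the lowest and highest 2% of probe sets was 149.98 on every array, so the authors had scaled them alike, and no further normalization was applied. Of 54675 probe sets, 41091 had 1 symbol, and those with several (1801) or none (11783) were not tested. Each gene was read from its probe set of highest mean log2(signal + 3), and 11548 of 19775 genes with a mean signal of at least 12.55 were tested.

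The linear models used limma 3.58.1 (R 4.3.3) with an intensity trend, two-sided tests and Benjamini-Hochberg adjustment over all 11548 genes at 0.05, after a check on simulated data. Culture was a fixed block, because each culture was split between both media. The deviations of NIKsh arrays from their group means correlated between the 2 arrays of a hairpin across genes with r = -0.038 for Z-138 and r = 0.202 for Maver-1. The Maver-1 model had a doxycycline effect per line and hairpin kind (2 residual degrees of freedom), the NTC model 1 for NTC and 1 for NIKsh cultures (4), and the untreated comparison a line term (4). Errors are standard errors of these models unless SD is stated.

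The members and lists were chosen with earlier results of these data known. Named are the 9 members, list genes that passed a test or had the smallest p or largest change, the 5 genes nearest RGS1, RGS2 and RGS13, and MAP3K14. Chromosome positions and upstream sequences are from RefSeq (GRCh38.p14), in which all 9 members had a window. Python 3.11.15, pandas 2.3.3 and matplotlib 3.10.9 were used for tables and figures. The number of arrays limits the precision.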

Additional observations from a re-analysis of the deposited data

Results flagged for a closer look

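RGS1 had a higher signal with doxycycline in both Z-138 NIKsh cultures and a lower one in both Maver-1 NIKsh cultures, and the mean log2 changes differed by 2.06 between the lines. RGS2 moved in opposite directions in the same way, with a difference of 1.88, although its Maver-1 changes were only -0.06 and -0.07. In NTC, RGS1 changed by 0.62 in Z-138 and -0.21 in Maver-1, and RGS2 by 0.36 and -0.21. NIKsh minus NTC in Maver-1 was thus -0.09 for RGS1 and 0.14 for RGS2, the latter with the same sign as in Z-138. The difference between the lines was not tested for either gene, because the Z-138 changes had chosen them.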

How the results depend on the processing

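The alternatives were other pseudocounts, quantile normalization, averaged probe sets, other filters, no intensity trend, no replicate block, culture as a random block and leaving out cultures. With no replicate block, as with the random replicate block, 0 genes passed in the Maver-1, Maver-1 against NTC and NTC comparisons, so the paired design changed no call there. Without 1 of the Maver-1 NIKsh cultures 2 to 9 genes passed in Maver-1 and 5 to 6 against NTC, with the lone culture assumed to vary like the others, and no member was among them. On the arrays with doxycycline 4194 genes differed between lines in place of 6956, and the values were -1.139 for RGS1, -0.202 for RGS2 and -0.888 for RGS13. With all 12 arrays and a random replicate block RGS1 was at -0.314. The count of genes at least 1.5-fold apart in both Z-138 NIKsh cultures was 582, fell to 368 with a pseudocount of 16, and was 1683 to 2303 when 1 culture decided. The Z-138 change of RGS13 was 3.69 with a pseudocount of 1 and 2.03 with 16, since its untreated signal is low.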
